A study of Elaeis guineensis with 12 samples.

Results

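Staminodia were compared with carpel in flowers of normal oil palms, Elaeis guineensis, using the 6 libraries whose labels give a normal phenotype, of 12 in the series. The 3 staminodia libraries and the 3 carpel libraries were chosen by their phenotype and tissue labels alone. They form 3 pairs, each of 1 staminodia and 1 carpel library with the same palm label and library number. Normal palm 1 gave replicates 1 and 2 of both organs, from separate parts of a single inflorescence, and normal palm 2 gave replicate 3 of both. All palms were clonal, all florets were at stage 3 of floral development, and no treatment is given in the labels. The other 6 libraries of the series came from 3 mantled palms, a tissue-culture variant, and are used below only where stated. Both organs were cut from frozen sections by laser capture, and a capture pools cells, so fewer cells of a type and less RNA per cell cannot be told apart.

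The oil palm bears male and female flowers in separate inflorescences, and the female flower keeps staminodia, the arrested remains of stamens, around the carpels that form the fruit. In flowering plants, stamen identity depends on B-class and C-class regulators acting together, mostly MADS-box transcription factors, while carpel identity depends on C-class regulators without the B class. Staminodia of a normal female flower begin as stamen-like organs and stop growing early, and in mantled flowers they grow into extra carpels. The comparison of the organs in normal palms addresses how they differ in an unaffected flower.

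Counts were summed over the numbered parts of each gene model, which gave 26087 gene models, 21922 of them with at least 1 read in the 6 libraries and 12577 with a read in every library. Levels are given as TMM-normalised CPM. These are counts divided by the library's reads in the gene models kept for testing, in units of CPM, and scaled between libraries. The staminodia libraries held 4125809, 3391047 and 2153546 assigned reads, and the carpel libraries 3073184, 4426220 and 2349579. Palm 2 gave the shallowest library of each organ and the fewest gene models, with 15458 read in staminodia and 14712 in carpel, against 18176 to 19735 in staminodia and 17975 to 18082 in carpel of palm 1. None of the feature IDs could be paired with a gene name, so B-class and C-class genes could not be looked up, the organ labels could not be checked against markers, and gene models are called by their IDs.

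The clearest organ difference was a set of 11 gene models that were higher in staminodia than in carpel. The strongest by test, maker-p5_sc00322-snap-gene-9.52, stood at 859, 1087 and 910 CPM in staminodia replicates 1, 2 and 3, against 84.6, 166 and 229 CPM in the carpel replicates of the same numbers. Every staminodia library lay above every carpel library, and relative to its mean the carpel level varied more between pairs than the staminodia level. These levels rest on 1920 to 3499 reads per library in staminodia and 266 to 731 in carpel. The means were 952 ± 120 CPM in staminodia and 160 ± 72.2 CPM in carpel (SD, n = 3 libraries each, from 2 palms). The fitted log2 difference, staminodia over carpel, was 2.68 (SE 0.23), or 6.39-fold. The quasi-likelihood test of edgeR, fitted with a block for each pair, gave it an adjusted p of 0.0358. With no replicate block the call was lost, at a log2 difference of 2.58 and an adjusted p of 0.0778 in edgeR.

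The largest fitted difference among the 11 was that of p5_sc00051_cds_156. It stood at 126, 110 and 51.6 CPM in staminodia, against 14, 16.3 and 3.74 CPM in carpel. Palm 2 had the lowest level in both organs, and yet the organ difference there was the widest of the 3 pairs, at 3.47 on the log2(CPM + 1) scale against 3.08 and 2.69 in the pairs of palm 1. The carpel library of palm 2 held 9 reads of this gene model, so that the level there is imprecise. The means were 96.0 ± 39.2 CPM in staminodia and 11.4 ± 6.70 CPM in carpel (SD, n = 3 libraries each), a log2 difference of 3.16 (SE 0.31) or 8.93-fold, with an adjusted p of 0.0358 in edgeR. This call was lost without replicate 2, where the log2 difference was 3.44 and the adjusted p 0.0901 in edgeR, and with no replicate block, at 3.05 and 0.279. The gene model has 7 parts, and the 5 parts with at least 30 reads all had higher mean levels in staminodia, by 1.79 to 4.004 on the log2(CPM + 1) scale.

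**Figure D1:**
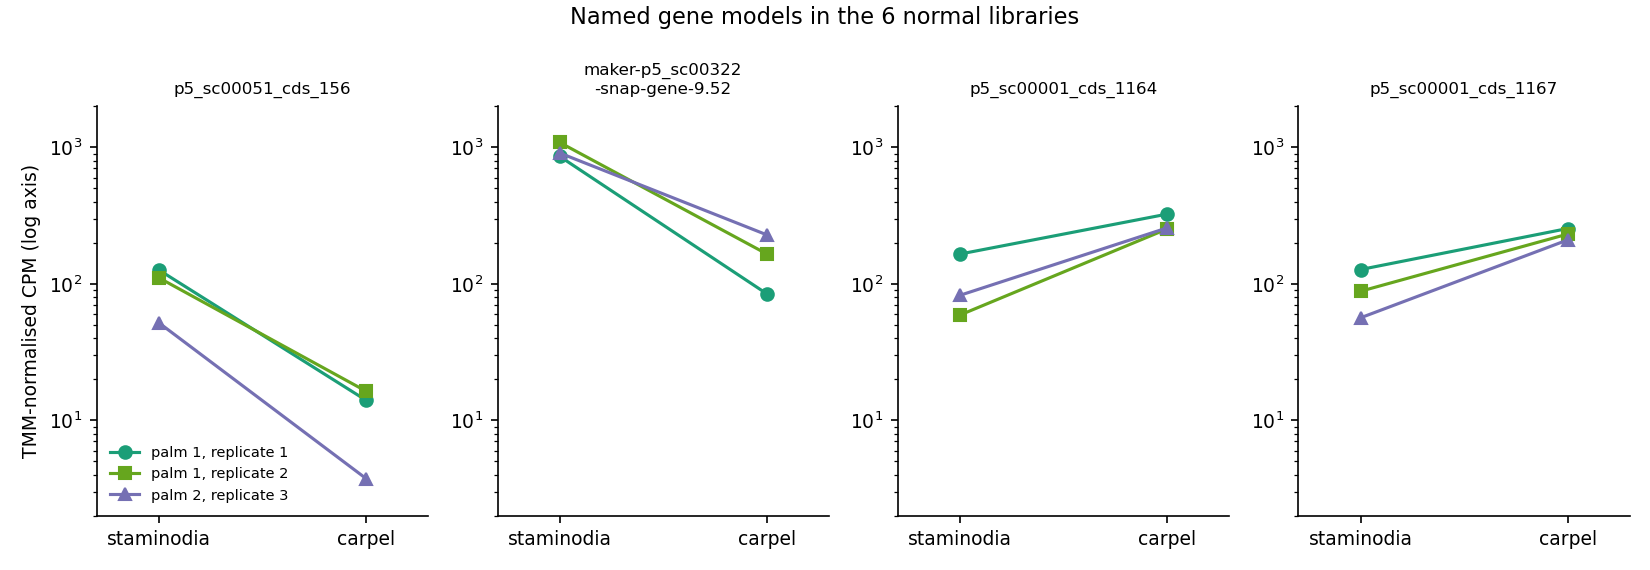
TMM-normalised CPM (log axis) of the 4 named gene models in staminodia (left) and carpel (right), with 1 line for each of the 3 pairs. In the left 2 panels staminodia are higher in every pair, and in the right 2 panels they are lower in every pair.

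In all, 11 of 14320 tested gene models passed an adjusted p of 0.05 (0.0768%), with 11 staminodia-high (0.0768%) and 0 carpel-high (0%). The tested gene models held 99.2% of the assigned reads. The other 9 called gene models had log2 differences of 0.83 to 1.70 (SE 0.10 to 0.17), which is 1.78-fold to 3.25-fold, with adjusted p-values of 0.0358 to 0.0486 in edgeR. Their mean levels ran from 212 to 1264 CPM in staminodia, against 66.2 to 715 CPM in carpel. In single pairs their difference lay between 0.71 and 1.91 on the log2(CPM + 1) scale, so each was higher in staminodia in 3 of 3 pairs. In 6 of the 11 the staminodia library held at least 2 times the carpel level in all 3 pairs. The 11 lay on 11 different scaffolds, and 7 of them consisted of a single part.

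For 9 of the 11 called gene models every staminodia library lay above every carpel library, which held for 5.92% of all tested gene models. The 11 were called by their differences in these same libraries, so the 9 are a description and no further evidence. The 2 exceptions had higher levels in palm 2 than in palm 1 in both organs. In the first, the staminodia libraries held 376, 468 and 937 CPM, against 179, 255 and 513 CPM in carpel. In the second they held 908, 1342 and 1544 CPM, against 532, 670 and 943 CPM in carpel. In both, the carpel library of palm 2 lay above the staminodia library of replicate 1 of palm 1, while within each pair staminodia were higher.

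**Figure D2:**
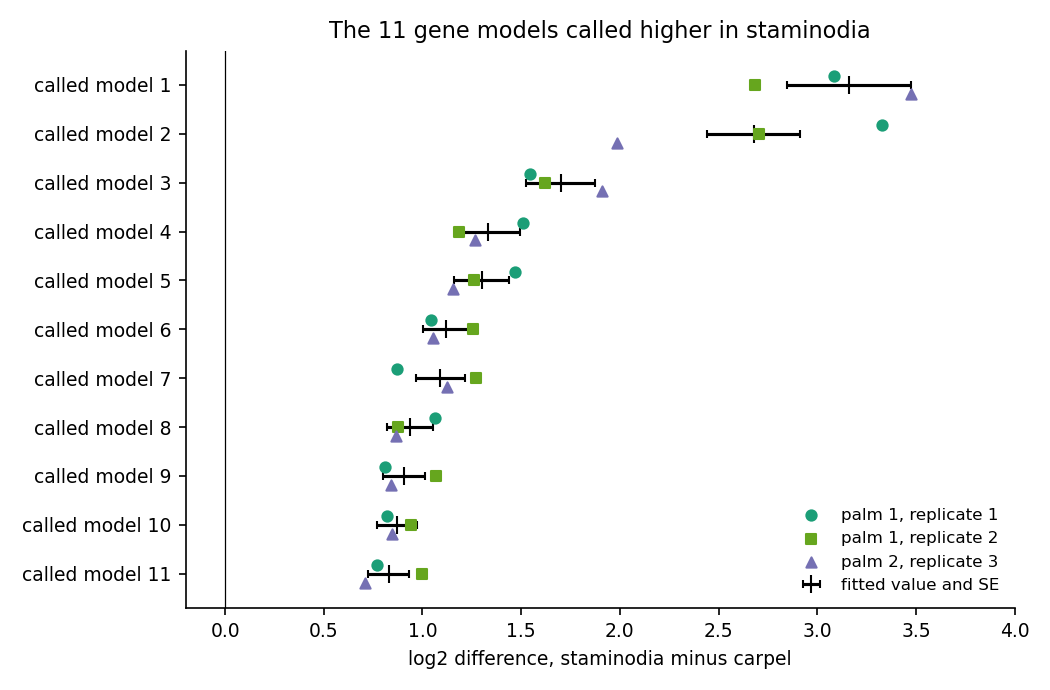
The log2 difference, staminodia minus carpel, of the 11 called gene models in each of the 3 pairs (points, from log2(CPM + 1)) with the fitted value and its SE (bar). All 33 points lie to the right of 0, between 0.71 and 3.47. The 11 were called from these same pairs.

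The call rested on few degrees of freedom. The block of 3 pairs left 2 residual degrees of freedom, and the test treats both pairs of palm 1 as independent although they share a palm and an inflorescence. Without replicate 2 edgeR called 1 gene model, without replicate 1 it called 36 (27 higher in staminodia, 9 higher in carpel), without replicate 3, which leaves palm 1 alone, it called 431, and with no replicate block it called 0. With libraries summed per palm it called 19 gene models, 14 staminodia-high and 5 carpel-high, and 10 of the 11 were among them.

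**Figure D3:**
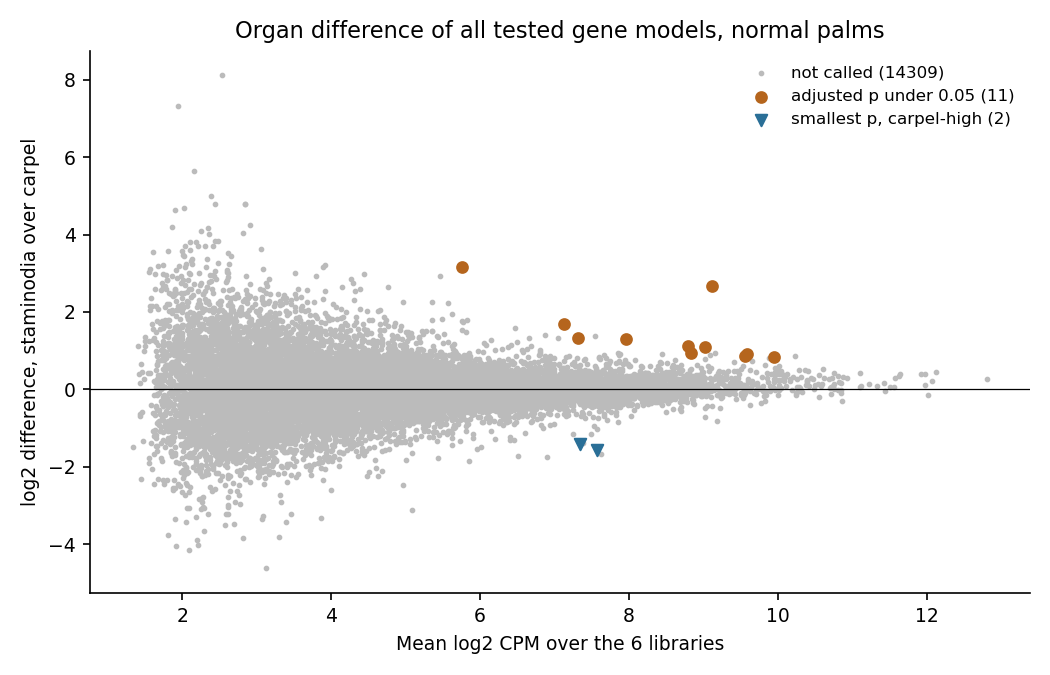
The log2 difference, staminodia over carpel, of all 14320 tested gene models against their mean log2 CPM. The 11 called gene models (orange) lie at the upper edge of the cloud at middle to high levels, and the 2 carpel-high gene models with the smallest p (blue) lie below it.

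The called gene models were well read ones. By mean log2 CPM they stood at the 73.0th percentile of all tested gene models or higher, with a median at the 97.7th percentile. Across all tested gene models the median SE of the log2 difference was 0.496, larger than the median size of the difference itself, 0.374. The median log2 difference over all tested gene models was 0.02.

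In edgeR's fit of the 6 libraries with the pair as a block and the filter on low counts, no gene model was called higher in carpel. With the same block, 19 were called without the filter, 9 without replicate 1, 0 without replicate 2 and 121 without replicate 3. At an unadjusted p under 0.05 the test listed 537 gene models with higher values in staminodia and 341 with higher values in carpel, 878 in all of 14320, where uniform p-values would give 716. This number was 464 without replicate 2, 1762 without replicate 3 and 580 with no replicate block. DESeq2 called 39 gene models higher in carpel and limma voom 50. The smallest adjusted p of a gene model with higher values in carpel was 0.0923.

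That p belonged to a pair of neighbours. Gene model p5_sc00001_cds_1164 stood at 165, 59.1 and 82.4 CPM in staminodia, against 324, 252 and 257 CPM in carpel. Gene model p5_sc00001_cds_1167 stood at 127, 88.2 and 56.4 CPM in staminodia, against 254, 231 and 210 CPM in carpel. For both, every carpel library lay above every staminodia library, as it did for 5.38% of all tested gene models, and the carpel levels varied less than the staminodia levels. Both gene models were picked by their p in these same libraries, so this is a description. The means were 102 ± 55.8 CPM in staminodia and 278 ± 40.2 CPM in carpel for the first, and 90.6 ± 35.5 CPM in staminodia and 232 ± 22.3 CPM in carpel for the second (SD, n = 3 libraries each). Their log2 differences were -1.56 (SE 0.22) and -1.41 (SE 0.20), each with an adjusted p of 0.0923 in edgeR. Without replicate 1 both passed in edgeR, at -1.88 (adjusted p = 0.00108) and -1.65 (adjusted p = 0.00484), and without replicate 3 at -1.49 (adjusted p = 1.08e-06) and -1.18 (adjusted p = 5.18e-06). With libraries summed per palm both passed as well, at -1.43 and -1.49. Neither passed in edgeR without replicate 2 (adjusted p = 0.255 and 0.303), with palm as the block (0.154 and 0.0672) or with no replicate block (0.595 and 0.418).

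The gene model numbered directly after p5_sc00001_cds_1164 had nearly the same difference. It held 142, 68.8 and 73.9 CPM in staminodia, against 246, 231 and 234 CPM in carpel, a log2 difference of -1.39 (SE 0.22, adjusted p = 0.124 in edgeR). It was looked at because of its number, after its neighbours had been chosen. These 3 gene models span 4 consecutive model numbers, and for 1 of these numbers the counts hold no gene model. The next tested gene models on each side had differences of -0.18 (SE 0.28) and -0.47 (SE 0.30). Over all 1464 pairs of tested gene models with consecutive numbers, 51.8% shared the sign of the organ difference, and the Pearson r between their differences was 0.06. That consecutive numbers mean neighbouring positions is read from the form of the IDs. Reads that align to several places were not assigned, so near-identical copies among neighbours may be undercounted.

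Parts of these gene models gave the same direction. The 4 parts of p5_sc00001_cds_1164 with at least 30 reads had differences in mean level of -2.12 to -1.32 on the log2(CPM + 1) scale, and the 6 such parts of p5_sc00001_cds_1167 had differences of -2.79 to -0.82. Parts of 1 model share their libraries and are no replicates.

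**Figure D4:**
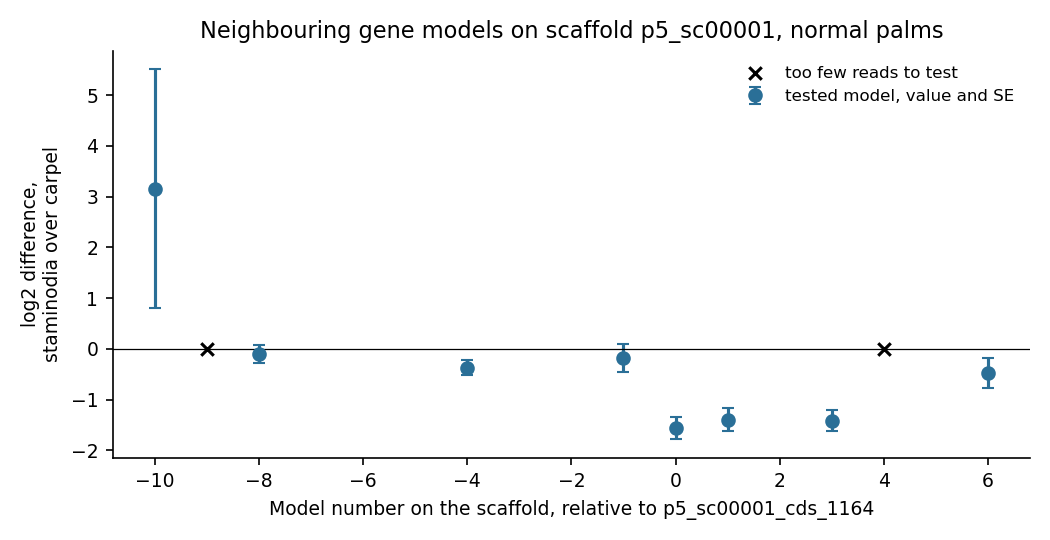
The log2 difference, staminodia over carpel, with its SE, of tested gene models on scaffold p5_sc00001 by model number relative to p5_sc00001_cds_1164, up to 10 numbers away. The 3 values at 0, 1 and 3 lie between -1.56 and -1.39, and the wide value at the left rests on 66 reads over the 6 libraries.

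Steady differences of 2 times or more in all 3 pairs were found for 94 gene models with staminodia higher (0.656% of those tested) and for 48 with carpel higher (0.335%). Most of them were weakly read. Their median level over the 6 libraries was 10.8 CPM on the staminodia side and 7.62 CPM on the carpel side, while the median of all tested gene models was 21.1 CPM. Of the 94, 6 passed in edgeR, 68 had an unadjusted p under 0.05, and the highest mean level was 556 CPM. Of the 48, 0 passed in edgeR, 23 had an unadjusted p under 0.05, and the highest mean level was 84.4 CPM. Both sets were picked by the size of the same difference, so nothing is read from these counts.

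The 3 pairs shared little of their organ difference at low levels and more at high levels. Over all tested gene models the Pearson r of the log2(CPM + 1) difference was 0.20 between the 2 pairs of palm 1, and 0.06 and 0.08 between these and the pair of palm 2. Among the 2257 gene models with a mean of 100 CPM or more it was 0.64 between the pairs of palm 1, and 0.24 and 0.32 between these and palm 2. Among the 4127 gene models under 10 CPM it was 0.11, and 0.04 in both other cases. These are correlations across gene models, which are not independent replicates, and gene models within a pair share the depth and scaling of their 2 libraries. All 3 pairs had the same direction in 42.5% of gene models at 100 CPM or more, 561 with staminodia higher and 399 with carpel higher, and in 26.05% of those under 10 CPM.

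The organ difference was widest in the pair of palm 2. Its SD over all tested gene models was 1.59 on the log2(CPM + 1) scale, against 0.63 and 0.79 in the pairs of palm 1. The palm 2 libraries had 0 reads of 881 tested gene models in staminodia and 1271 in carpel, against 23 to 97 in staminodia and 78 to 100 in carpel of palm 1. In palm 2, 602 tested gene models were at 0 in 1 organ and at 10 CPM or more in the other, while there were 4 and 11 such gene models in the pairs of palm 1. The part of these missing reads in the wider difference of palm 2 was not tested.

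Palm 1 alone gave a longer list, and palm 2 served to describe it in libraries that had not been used for its calls. In palm 1 edgeR called 310 gene models higher in staminodia (2.05% of 15098 tested) and 121 higher in carpel (0.801%), on 2 pairs from 1 inflorescence and 1 residual degree of freedom. Of the 305 staminodia-high gene models also tested in all 6 libraries, 234 (76.7%) were higher in staminodia in palm 2 too, where 50.7% of all tested gene models were. Of the 119 carpel-high ones, 88 (73.9%) were higher in carpel in palm 2, where 47.6% of all tested gene models were. Being tested in all 6 libraries depended on a low-count filter that used the palm 2 counts too. This filter kept 305 of the 310 staminodia-high and 119 of the 121 carpel-high calls. The median log2 difference of the staminodia-high set was 0.84 in palm 1 and 0.44 in palm 2. That of the carpel-high set was -0.9996 in palm 1 and -0.45 in palm 2. The palm 1 values are fitted, and those of palm 2 use log2(CPM + 1) of 1 pair. Both sets were picked by their palm 1 values, so the medians do not show a smaller organ difference in palm 2. A difference of 2 times or more in palm 2 was found in the same direction for 83 and in the opposite direction for 13 of the staminodia-high set, and for 31 and 6 of the carpel-high set. Such differences were common in palm 2. Of all 14212 gene models tested in both fits, 2963 were 2 times or more higher in staminodia there and 2771 in carpel.

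**Figure D5:**
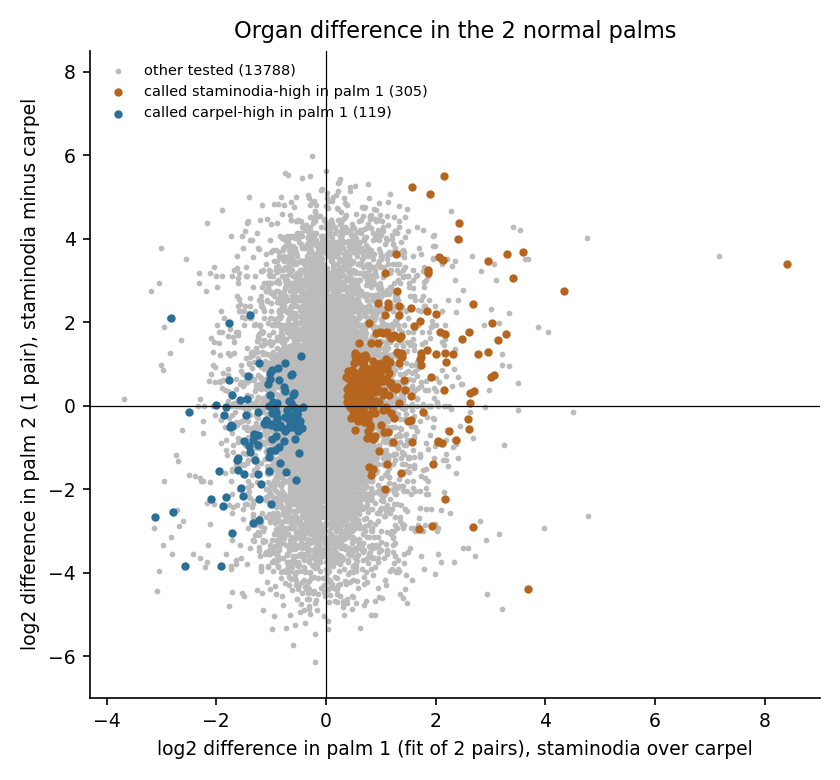
The log2 difference, staminodia over carpel, of each gene model in palm 1 (horizontal, fit of 2 pairs) and in palm 2 (vertical, 1 pair, from log2(CPM + 1)). Of the 305 staminodia-high calls of palm 1 (orange) 234 lie above 0 in palm 2, and of the 119 carpel-high calls (blue) 88 lie below 0.

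Gene models read in 1 organ only numbered 2040 for staminodia and 859 for carpel when a read in any library counts, of 21922 with a read. Of these, 31 staminodia-only and 29 carpel-only gene models had 30 or more reads. A single library held almost all of the reads in 6 of the 31 and in 19 of the 29. Reads came from 1 palm only in 12 of the 31 and in 14 of the 29. In 71 gene models all 3 staminodia libraries held a read and no carpel library did, and in 16 all 3 carpel libraries held a read and no staminodia library did, with 9670402 assigned reads in staminodia and 9848983 in carpel. Among those read in all 3 libraries of 1 organ, 13 of the 71 and 6 of the 16 had 30 or more reads, and the most for any was 96 reads in staminodia and 76 in carpel. The number of gene models read also differed between libraries, from 15458 to 19735 in staminodia and from 14712 to 18082 in carpel. The larger number of staminodia-only gene models is therefore not read as a trait of the organ. A count of 0 does not show that a gene model is absent from an organ. Reads without molecular identifiers are not independent molecules, so such counts cover counting error only.

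In mantled palms, whose libraries took no part in the choice, 10 of the 11 gene models had higher fitted values in staminodia than in carpel. The share of all tested gene models with that direction in mantled palms was not worked out, so nothing is read from this count. The median log2 difference of the 11 was 1.13 in normal and 0.27 in mantled palms in a fit of all 12 libraries. None of the 11 passed the adjusted threshold for mantled palms in edgeR, where 0.0248% of 16135 tested gene models did. The 11 were picked by their values in normal palms, so these medians describe the picked gene models and were not tested against each other. Gene model p5_sc00051_cds_156 stood at 9.14, 11.98 and 4.67 CPM in mantled staminodia, against 5.57, 5.94 and 13.5 CPM in mantled carpel, and its organ difference came to 3.19 (SE 0.48) on the log2 scale in normal palms, against 0.12 (SE 0.49) in mantled palms. The contrast of normal with mantled palms, 3.07 (SE 0.67), had an adjusted p of 0.468 in edgeR, where 0.0062% of 16135 tested gene models passed. The neighbours p5_sc00001_cds_1164 and p5_sc00001_cds_1167 had log2 differences of -1.55 (SE 0.33) and -1.41 (SE 0.32) in normal palms, against -1.54 (SE 0.35) and -1.42 (SE 0.34) in mantled palms, where neither passed in edgeR (adjusted p = 0.158 and 0.194). The mantled pairs were uneven. The first held 49.1, 30.9 and 56.8 CPM in mantled staminodia, against 49.7, 118 and 338 CPM in mantled carpel. The second held 49.4, 27.8 and 41.6 CPM in mantled staminodia, against 49.5, 92.0 and 227 CPM in mantled carpel, so that in both the organs were nearly level in mantled palm 1.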

How the data were processed

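RNA of laser-captured staminodia and carpel was depleted of ribosomal RNA and made into stranded libraries, read as paired ends of 2 lengths on 2 instrument types, per the labels' protocols. Which library had which is not given in the sources used here, and no batch check was possible. The submitters' processing notes name HTSeq 0.6.1p1, TopHat2 2.0.13, cutadapt, Trim Galore and CASAVA 1.8.2. The strand setting, annotation and genome build are likewise not given there, so overlapping and antisense genes may share reads. The authors deposited whole-number read counts for 100342 features per library, not normalised, as the values show. In the 6 normal libraries 26.1% to 31.9% of the counts stood in features, and the summary rows for reads in no feature (47.0% to 49.3%), ambiguous (10.9% to 14.3%) and multiply aligned reads (6.79% to 14.1%) were left out.

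Going by the form of the IDs, 92649 features were summed to 18394 gene models and 7693 stood for 1 model each, named here without their transcript suffix. None of the IDs (0 of 100342) matched the 185249 names of the reference gene table, so the organ marker and floral identity lists and any sequences were not used. Gene models passing filterByExpr (minimum count 10) were tested with edgeR 4.0.16 in R 4.3.3, with TMM factors (0.95 to 1.03), robust quasi-likelihood dispersions (median prior degrees of freedom 6.13), the pair as a block and Benjamini-Hochberg adjustment over all gene models tested. Each SE is the size of the log2 difference over the square root of its F statistic. Values of single pairs use log2(CPM + 1). Only the edgeR fit with the pair as a block was run on simulated counts with known differences. The simulated pairs were independent, so the shared palm was not covered.

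Pairing comes from the palm labels and, within palm 1, the library number in the titles. Deviations from the organ means correlated at 0.22, 0.13 and 0.17 within the pairs and at 0.02 or less between them. The deviations of the 3 libraries of an organ sum to 0 by construction. Positive values within pairs therefore force lower values between them, and the latter add no support for the pairing. A chi-square test of counts put libraries 1 and 2 of palm 1 beyond sampling noise, and they were kept apart. It gave 7.83 per degree of freedom for staminodia and 7.97 for carpel, and 21.6 to 27.4 between palms. The test covers counting error only, so it cannot show that the 2 libraries are independent replicates. Up to 2 IDs per direction were named: called gene models whose mean log2 CPM reached 1 and whose 3 pairs had 1 sign, by the largest smallest pair difference, and otherwise those of smallest p. Comparisons, lists and rules were chosen with earlier results of these data known. Alternatives used other blocks, palm sums, all 12 libraries, single features, median-ratio factors, DESeq2 1.42.0, limma 3.58.1, no filter, thinned counts and each pair left out.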

Additional observations from a re-analysis of the deposited data

Results flagged for a closer look

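The organ difference of maker-p5_sc00322-snap-gene-9.52 differed between normal and mantled palms by a test of the difference itself. In the fit of all 12 libraries staminodia over carpel came to 2.68 (SE 0.24) on the log2 scale in normal palms, against 0.39 (SE 0.23) in mantled palms. The contrast of normal with mantled palms was 2.30 (SE 0.33), and edgeR's adjusted p for it was 0.0267. Its levels were 55.8, 124 and 92.2 CPM in mantled staminodia, against 71.1, 80.8 and 49.8 CPM in mantled carpel. It was higher in staminodia in 3 of 3 normal pairs, which came from 2 palms. It was the 1 gene model past the threshold of 16135 tested (0.0062%). The fit treats the pairs of palm 1 as independent although they share a palm and an inflorescence. No alternative was run for this contrast.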

How the results depend on the processing

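The number of called gene models was 11 and moved with the block, the tool and the counting unit. It was 0 with no replicate block, 19 with palm sums, 61 (42 higher in staminodia, 19 higher in carpel) with all 12 libraries, 1 with features as deposited, 78 (59 and 19) without a filter, 165 (126 and 39) in DESeq2 and 224 (174 and 50) in limma voom, and ran from 1 to 431 when a replicate was left out. All 11 were among the calls with all 12 libraries, without a filter, in DESeq2, in limma voom, with thinned counts and without replicate 1 or 3. With palm as the block 9 were called, 7 of them among the 11, and with median-ratio factors 8. The cause of these shifts was not tested. In each alternative that used gene models all 11 had higher values in staminodia.

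The log2 difference of maker-p5_sc00322-snap-gene-9.52 ran from 2.35 to 3.02 over 13 alternatives (adjusted p from 5.57e-38 to 0.0778, the highest with no replicate block), and that of p5_sc00051_cds_156 from 2.96 to 3.44 over 12 (1.97e-11 to 0.279). That of p5_sc00001_cds_1164 ran from -1.88 to -1.28 (1.65e-07 to 0.595) and that of p5_sc00001_cds_1167 from -1.65 to -1.18 (4.02e-06 to 0.418), with a call in 7 and 6 of 12 alternatives. No direction was reversed in these. With each library thinned to the smallest, 11 gene models were called. Both libraries of palm 2 were the shallowest of their organ.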
